A study of Mus musculus with 30 samples.

Results

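The Zfp genes described here are the mouse genes whose symbol is Zfp followed by a number. They were taken from a table of RNA levels in spinal microglia by a rule: the symbol had that form, Zfp36 was left out, and the mean over all 30 libraries was at least 1 FPKM (RNA level scaled to transcript length and library size). The rule found 225 genes of 338 rows with such a symbol, in a table of 24888 rows; 109 genes were under the minimum, and 4 rows were left out because their symbol stood on more than 1 row. The members were thus chosen by their mean FPKM over all libraries, and their levels are given as a description. Just inside the minimum were Zfp708 at 1.01 FPKM, Zfp583 at 1.05 FPKM and Zfp628 at 1.09 FPKM, and just outside were Zfp595 at 0.988 FPKM, Zfp867 at 0.983 FPKM and Zfp697 at 0.974 FPKM. All 225 members passed the filter of the tests, which kept 11759 genes with at least 1 FPKM in at least 2 libraries.

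All libraries came from C57BL/6J mice, and the cells were taken from the caudal lumbar cord after PBS perfusion by magnetic removal of myelin and selection for CD11b, an integrin that microglia share with neutrophils and monocytes. The controls were 2 naive libraries (no treatment or injury), 4 saline libraries of the fixed regimen (saline_fixed, replicates 3 to 6) and 3 of the escalating regimen (saline_escalating, replicates 7 to 9). Each injury group had 2 libraries. The sciatic nerve was cut (transection, SNT) and cells were taken 1, 2, 4 or 7 days later (days post injury, dpi). Other mice had the nerve loosely tied (constriction, CCI) and were sampled on day 2 or 7, or had a spared injury of its branches (SNI), sampled on day 7. Morphine was given chronically on a fixed regimen (morphine_fixed, 4 libraries) or an escalating regimen (morphine_escalating, 3 libraries). The labels give no doses or ages, and do not say whether libraries came from separate animals, so a p-value measures only the spread between these libraries, which may be technical. In such bulk samples, fewer cells of a type and less RNA per cell cannot be told apart.

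Most Zfp genes encode proteins with C2H2 zinc fingers, short folds in which a pair of cysteines and a pair of histidines hold a zinc ion, and which often stand in arrays that read DNA. Many of them also carry a KRAB box, which recruits the scaffold protein TRIM28 (KAP1); TRIM28 in turn brings the histone methyltransferase SETDB1, HP1 proteins and the NuRD deacetylase complex, and the target, often a transposable element, is silenced. Others have no such box and act as activators, as partners of chromatin complexes, in RNA handling or as ligases. KRAB genes have multiplied by local duplication and lie in clusters on a few chromosomes.

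The libraries differed in ways their groups do not explain. Sequencing depth is unknown, as the values are FPKM without counts. The number of genes with at least 1 FPKM ran from 8005 to 10427, and the libraries with the fewest were SNT_1dpi replicate 1 (8005 genes, 44 members listed at 0), SNT_7dpi replicate 1 (8466 genes, 36 members) and SNT_2dpi replicate 2 (8763 genes, 4 members). Replicates 7 and 9 of saline_escalating also listed 16 and 19 members at 0. Cst3, the abundant microglial gene of cystatin C, fell into separate ranges: 14 libraries had 10120 to 20827 FPKM, and 16 had 39503 to 95123 FPKM. The low range held both naive libraries, SNT_7dpi replicate 2, all CCI and SNI libraries, all of morphine_fixed and morphine_escalating replicate 1; all saline libraries, the other SNT libraries and morphine_escalating replicates 2 and 3 were in the high range. Summed microglial markers (10 of 10 found) spanned 6535 to 16424 FPKM and summed neutrophil markers (9 of 10 found) 1804 to 62761 FPKM, so neutrophil RNA was present throughout. Summed neuron markers (10 of 10 found) spanned 2.41 to 102 FPKM.

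The members were mostly of low abundance. Their median mean level was 3.34 FPKM, where that of all tested genes was 6.60 FPKM; 22 members averaged over 10 FPKM, 154 under 5 FPKM and 64 under 2 FPKM. Zfp706, which encodes a short protein with 1 predicted finger, averaged 55.8 ± 8.52 FPKM (SD, n = 30) and Zfp207, the gene of the spindle assembly factor BuGZ, 51.7 ± 12.2 FPKM. These 2 genes stood apart from Zfp467 at 23.2 FPKM, Zfp710 at 18.9 FPKM, Zfp740 at 17.8 FPKM and the KRAB gene Zfp90 at 17.1 FPKM. Zfp637, Zfp524, Zfp691, Zfp263, Zfp277 and Zfp330 followed within 13.2 to 15.1 FPKM, so their order is smaller than their spread. Zfp706 was also the steadiest member, at 42.2 to 73.6 FPKM over the libraries (SD 0.21 of log2(FPKM + 1)), followed by Zfp74, Zfp106, Zfp410 and Zfp467. Zfp384 varied the most (SD 1.22), from 0.277 to 18.0 FPKM. Zfp219 followed (SD 1.20) because it was listed at 0 in 25 libraries and at 5.18 to 11.8 FPKM in the other 5. In all, 77 members were listed at 0 in at least 1 library, which in an FPKM table can be a failed estimate as well as an absence of reads.

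**Figure D1:**
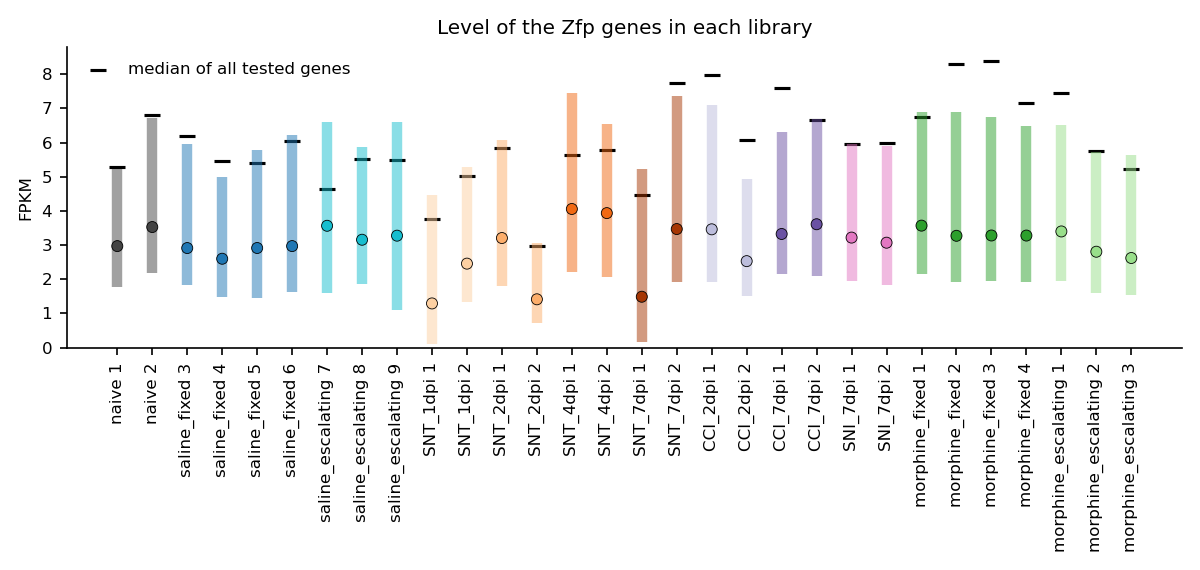
FPKM (vertical axis) of the 225 Zfp genes in each of the 30 libraries (horizontal axis); points are the median, bars run from the 25th to the 75th percentile, and black dashes mark the median of all 11759 tested genes. The median lay between 1.29 FPKM in SNT_1dpi replicate 1 and 4.06 FPKM in SNT_4dpi replicate 1, and under the median of all tested genes in every library.

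By translation of the GENCODE M21 coding sequences (mouse build GRCm38, the build mm10 of the submitters' processing notes), 222 members had a protein to search. A KRAB pattern was found in 103 of them and not in 119; a box that departs from the pattern would be missed. The median number of predicted fingers was 10, with 11 among KRAB members and 8 among the others, and the longest array was that of Zfp142 with 36. Only 2 KRAB members but 25 of the others had under 4 fingers. KRAB members had the lower levels, with a median mean of 2.58 FPKM against 4.55 FPKM, and they were 4 of the 22 members over 10 FPKM. Chromosome 7 held 57 members, chromosome 17 held 28 and chromosome 13 held 19. Runs of at least 3 members with gaps of at most 500 kb held 113 members, of which 74 were KRAB. The longest was a run of 14 members at chr17:21008903-23564238 (Zfp160 to Zfp213, 11 KRAB), followed by 11 at chr13:67069399-67827002 and 11 at chr7:29768552-30169750. Neighbours of this kind have similar sequences, so the counting of reads between them is uncertain. Exons of another gene on the opposite strand overlapped 56 members, and the library kit does not mark strand, so reads of such pairs cannot be told apart.

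**Figure D2:**
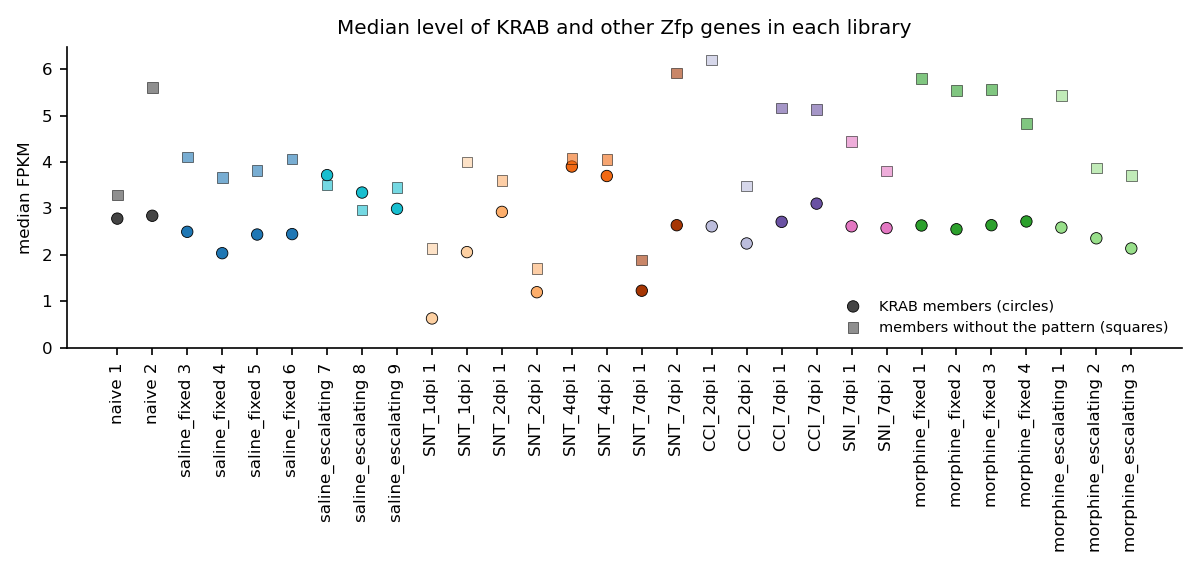
Median FPKM (vertical axis) of the 103 KRAB members (circles) and of the 119 members without the pattern (squares) in each library (horizontal axis, coloured by group). KRAB medians were highest in SNT_4dpi (3.70 and 3.90 FPKM) and in saline_escalating replicate 7 (3.72 FPKM), and lowest in SNT_1dpi replicate 1 (0.630 FPKM).

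Fixed morphine against fixed saline was the only comparison of a pair of conditions in which members passed the test. Levels of 26 members rose and 6 fell (32 of 225, 14.2%), where 18.0% of all tested genes were called, 13.6% higher and 4.46% lower (limma, Benjamini-Hochberg adjusted p under 0.05, two-sided, n = 4 and 4), so the share of Zfp genes called was not above that of all genes. The largest rises were those of Zfp384, Zfp746 and Zfp91, and the largest falls those of Zfp511, Zfp69 and Zfp217. The groups did not overlap in any of the 32. They did not overlap in 68 members in all (30.2%), where 29.6% of all tested genes did not. The 2 groups lay in different Cst3 ranges throughout (low for morphine, high for saline), so the treatment and whatever separates the ranges cannot be told apart here.

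Zfp384 encodes a C2H2 factor also known as CIZ, which binds promoters of matrix metalloproteinase genes. It had 15.9, 14.7, 16.3 and 14.6 FPKM under fixed morphine, and 5.76, 4.84, 1.25 and 1.43 FPKM in fixed saline. The difference was 2.09 ± 0.51 on the log2(FPKM + 1) scale (SE, limma, adjusted p = 0.0166). Its exons overlap those of 4930557K07Rik on the opposite strand. Zfp746 encodes PARIS, a repressor of PGC-1α and a substrate of the ubiquitin ligase parkin. It had 10.3, 9.37, 9.11 and 10.7 FPKM against 2.22, 2.85, 3.13 and 1.50 FPKM, a log2 difference of 1.69 ± 0.37 (limma, adjusted p = 0.0113). Zfp91 encodes an atypical ubiquitin ligase of the non-canonical NF-κB pathway. It had 9.16, 14.2, 14.9 and 8.88 FPKM against 2.62, 4.26, 4.91 and 2.23 FPKM, a log2 difference of 1.52 ± 0.33 (limma, adjusted p = 0.0105). In each of these 3 genes the lowest morphine library was above the highest saline library.

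Zfp740 had the highest mean under fixed morphine of the members that rose, at 31.8, 27.7, 25.6 and 31.1 FPKM against 11.8, 11.1, 10.7 and 7.25 FPKM, a log2 difference of 1.44 ± 0.33 (limma, adjusted p = 0.0126); its exons overlap those of Csad on the opposite strand. Zfp710 had means of 28.1 ± 3.17 and 14.1 ± 3.28 FPKM (SD, n = 4 each) and Zfp639 means of 10.4 ± 0.347 and 3.71 ± 0.986 FPKM. Zfp148 encodes ZBP-89, which binds GC-rich promoter elements, and averaged 9.45 ± 0.150 against 4.31 ± 1.12 FPKM. Zfp131, which encodes a BTB-domain factor, averaged 7.57 ± 0.686 against 2.78 ± 0.112 FPKM, the tightest saline group of these genes. Zfp654, Zfp407, Zfp646 and Zfp629 rose by 1.23, 0.92, 0.92 and 0.91 on the log2 scale.

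Among the members that fell, Zfp69 encodes a KRAB protein linked to lipid storage and diabetes in mice. It had 8.54, 4.44, 4.36 and 5.05 FPKM under fixed morphine and 15.2, 9.85, 27.7 and 17.3 FPKM in fixed saline, a log2 difference of -1.45 ± 0.35 (limma, adjusted p = 0.0158). Zfp217, the mouse counterpart of an oncogene whose protein sits in corepressor complexes, had 2.11, 1.53, 1.64 and 2.40 FPKM against 5.00, 4.25, 6.76 and 6.49 FPKM, a log2 difference of -1.17 ± 0.30 (limma, adjusted p = 0.0189). Both lay apart from saline in all 4 libraries. Zfp511 was at 7.05 and 6.78 FPKM in replicates 1 and 4 and listed at 0 in replicates 2 and 3, against 7.62 to 18.2 FPKM in saline, so its fitted difference of -2.11 ± 0.63 (limma, adjusted p = 0.0352) leans on those zeros; its exons overlap those of Tubgcp2. Zfp691, Zfp637 and Zfp105 fell by 0.95, 0.79 and 0.68 on the log2 scale.

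The promoters of the 3 members that rose most and the 3 that fell most are shown because these genes had the largest differences in either direction. The windows are the 250 bases before the RefSeq start (GRCm38.p6), 5′ to 3′ on the gene's strand. Capitals mark matches to the GC box GGGCGG and to the ETS-type motif CGGAAG on either strand; adjoining or overlapping matches run together. They lie at chr6:125008876-125009125 on the plus strand for Zfp384, chr6:48086594-48086843 (minus) for Zfp746, chr19:12796124-12796373 (minus) for Zfp91, chr7:140036141-140036390 (plus) for Zfp511, chr4:120951702-120951951 (minus) for Zfp69 and chr2:170142676-170142925 (minus) for Zfp217. Only the first start listed for each symbol was used. The Zfp217 window lies inside its GENCODE gene model (chr2:170108643-170148103).
Zfp384: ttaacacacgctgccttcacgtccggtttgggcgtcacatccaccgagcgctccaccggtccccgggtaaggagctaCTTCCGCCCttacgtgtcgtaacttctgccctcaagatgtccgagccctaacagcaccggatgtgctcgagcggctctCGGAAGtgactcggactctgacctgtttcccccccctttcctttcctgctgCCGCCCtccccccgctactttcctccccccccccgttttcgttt
Zfp746: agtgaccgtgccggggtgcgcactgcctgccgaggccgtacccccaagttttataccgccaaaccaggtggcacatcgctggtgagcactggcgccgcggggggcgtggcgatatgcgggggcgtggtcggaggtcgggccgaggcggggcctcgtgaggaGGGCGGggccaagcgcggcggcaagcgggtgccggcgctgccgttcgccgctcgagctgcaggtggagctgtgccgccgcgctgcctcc
Zfp91: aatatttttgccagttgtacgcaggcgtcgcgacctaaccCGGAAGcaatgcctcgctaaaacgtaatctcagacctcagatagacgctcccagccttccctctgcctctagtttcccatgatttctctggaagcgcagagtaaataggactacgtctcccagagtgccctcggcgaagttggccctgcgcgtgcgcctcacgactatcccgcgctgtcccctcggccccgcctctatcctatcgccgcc
Zfp511: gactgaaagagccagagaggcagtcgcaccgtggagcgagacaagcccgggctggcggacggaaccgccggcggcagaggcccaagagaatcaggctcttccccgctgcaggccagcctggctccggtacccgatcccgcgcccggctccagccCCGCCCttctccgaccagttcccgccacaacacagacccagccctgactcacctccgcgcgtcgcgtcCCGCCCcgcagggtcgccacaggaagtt
Zfp69: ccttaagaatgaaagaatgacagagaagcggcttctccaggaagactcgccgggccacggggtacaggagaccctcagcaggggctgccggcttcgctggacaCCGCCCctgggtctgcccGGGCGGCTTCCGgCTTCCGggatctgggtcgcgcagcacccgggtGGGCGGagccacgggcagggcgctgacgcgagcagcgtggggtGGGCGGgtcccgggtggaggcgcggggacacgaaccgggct
Zfp217: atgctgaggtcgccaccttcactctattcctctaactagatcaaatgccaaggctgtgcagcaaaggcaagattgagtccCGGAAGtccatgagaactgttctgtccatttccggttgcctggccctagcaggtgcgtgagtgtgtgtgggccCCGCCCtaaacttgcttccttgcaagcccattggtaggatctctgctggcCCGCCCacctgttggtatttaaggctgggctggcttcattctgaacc
The GC box was found 4 times before Zfp69, 2 times before Zfp384, Zfp511 and Zfp217, 1 time before Zfp746 and not before Zfp91. CGGAAG was found 2 times before Zfp384 and Zfp69, 1 time before Zfp91 and Zfp217, and not before the other 2, so neither motif divided the genes that rose from those that fell. Of the 190 members with a window, 46.8% held GGGCGG and 33.2% held CGGAAG, where 32.9% and 13.8% of all 27025 promoters did. TATAAA was in 4.74% of them against 13%, and the E-box CACGTG in 6.32% against 6.05%. The median window of the members held 12 CG pairs against 6 in all promoters. Members were chosen for their level in these libraries and the set of all promoters was not. Promoters of other genes with similar levels were not compared. A match is a run of letters and shows no binding.

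**Figure D3:**
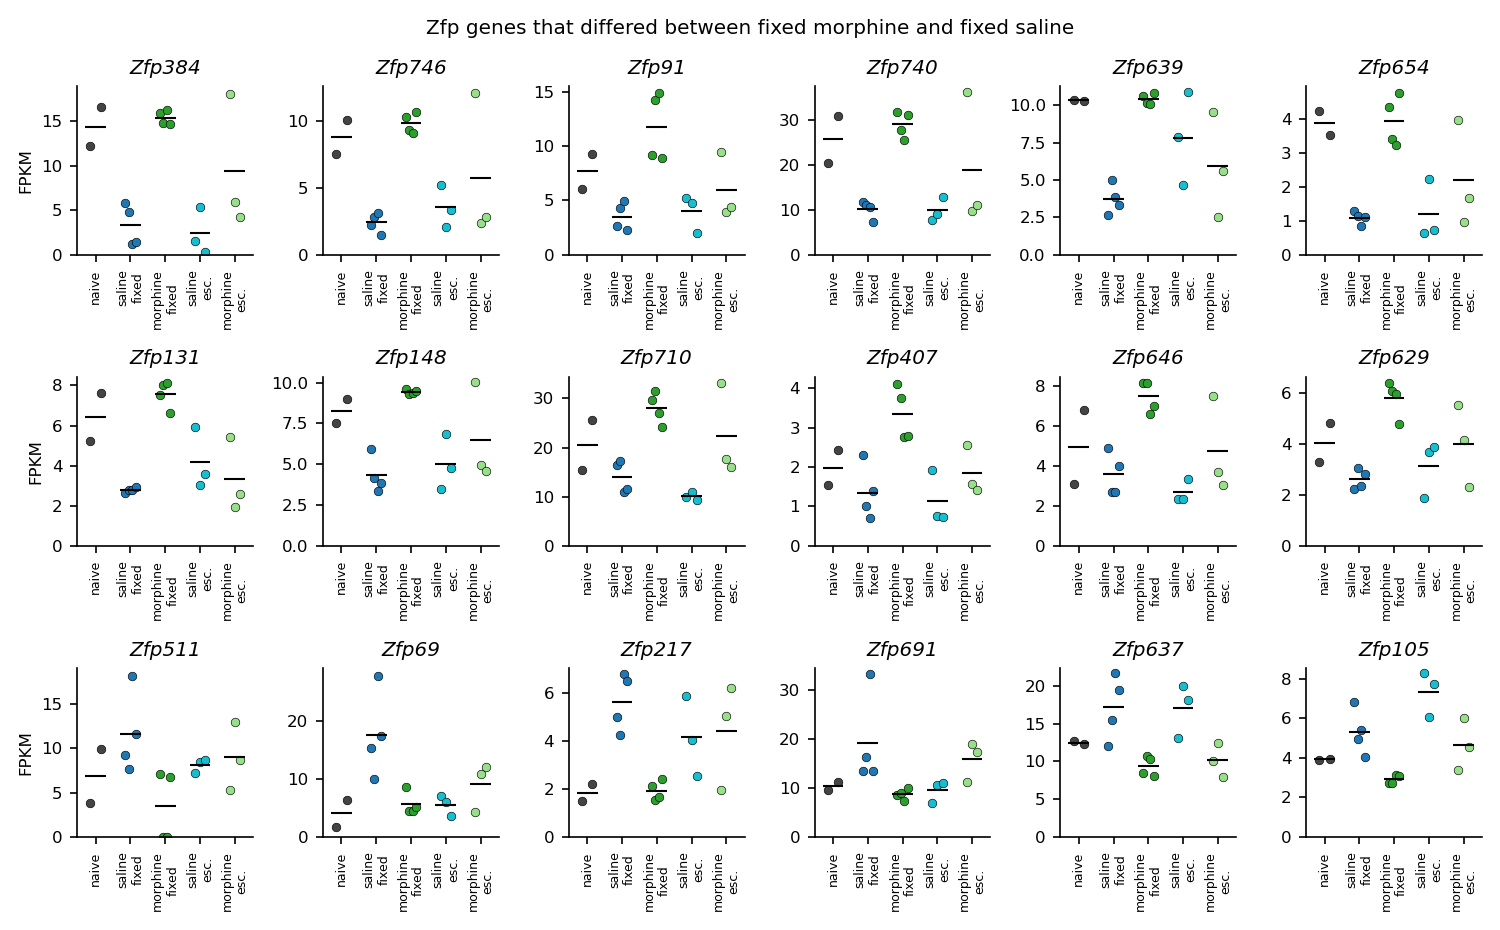
FPKM (vertical axes, from 0) of the 18 named Zfp genes that differed between fixed morphine and fixed saline, in the naive, saline and morphine groups (horizontal axes); points are libraries and lines are group means. In the first 12 panels the 4 morphine_fixed points sit above the 4 saline_fixed points and in the last 6 below them, and morphine_escalating replicate 1, the first point of the last group, lies apart from the other 2 in most panels. Genes were named only where fixed morphine and fixed saline did not overlap, so that separation follows from the choice.

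The direction split of these calls moved with the scaling. As deposited, the median difference was 0.20 over the members and 0.22 over all tested genes, and 81.3% of the called members were higher. After median-ratio scaling 13 members were higher and 10 lower (median of all genes 0.04), and after quantile normalization 8 were higher and 12 lower (median of all genes -0.02). Over all tested genes the calls were 1595 higher and 524 lower as deposited, 1039 and 783 after median-ratio scaling, and 986 and 826 after quantile normalization. Without 1 library, 20, 10, 10, 16, 8 and 8 members were called when saline_fixed replicate 4, 5 or 6 or morphine_fixed replicate 1, 2 or 3 was left out. The share of all tested genes called in these fits is not given here, so the counts say nothing particular to Zfp genes. Zfp746, Zfp91, Zfp740, Zfp639, Zfp654 and Zfp131 kept their call in each of the 8 such fits, and the other 12 of the 18 named members lost it in at least 1; Zfp384 had an adjusted p of up to 0.0580 (limma) and Zfp105 lost it in all 8.

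Libraries of other groups showed where the called members stood outside this comparison. Of the 26 that rose, 17 were above every fixed saline library in both naive libraries as well, and 16 in all 6 CCI and SNI libraries. SNT_7dpi replicate 2 was above fixed saline in 26 of 26 and replicate 1 in 6. Morphine_escalating replicate 1 was above fixed saline in 26, while replicate 2 was in 8 and replicate 3 in 7. Against the naive libraries, which share the low Cst3 range with morphine_fixed, no member was called (limma, 0 calls, 2 members at an unadjusted p under 0.05; over all genes 0 calls and 180 genes), and the median member difference was 0.04 against 0.23 over all genes. This comparison was chosen after the data were seen. In it Zfp384 differed by 0.10 and Zfp746 by 0.15, and Zfp69 and Zfp217 turned to 0.54 and 0.04. Zfp384, Zfp746, Zfp91 and Zfp740 did not overlap between the Cst3 ranges: Zfp384 had 11.5 to 18.0 FPKM in the 14 libraries of the low range and 0.277 to 10.6 FPKM in the 16 of the high one, and Zfp740 16.3 to 36.1 FPKM and 3.21 to 13.9 FPKM. Other measures moved with the comparison too. Summed neuron markers were 22.5 to 68.9 FPKM under fixed morphine and 2.41 to 32.6 FPKM in fixed saline, and summed neutrophil markers 1804 to 18502 and 7295 to 28757 FPKM. In the same order, summed oligodendrocyte markers were 135 to 228 and 69.8 to 151 FPKM (medians 156 and 85.3). Summed monocyte markers were 110 to 1605 and 306 to 1467 FPKM (medians 162 and 736). The groups overlapped in each of these sums. A floor that falls as depth rises (the 5th percentile of the nonzero FPKM times transcript length in kilobases) was 0.118 to 0.135 and 0.350 to 0.539. The part of these in the result was not tested.

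**Figure D4:**
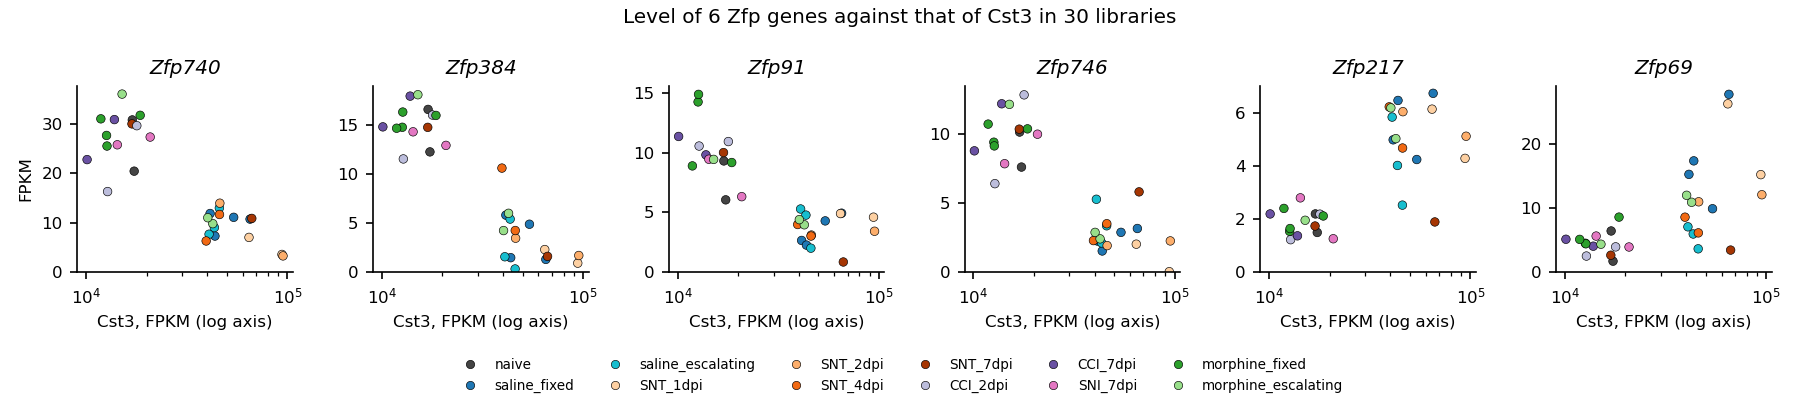
FPKM of 6 Zfp genes (vertical axes, from 0) against FPKM of Cst3 (horizontal axes, logarithmic) in the 30 libraries, coloured by group. Zfp740, Zfp384, Zfp91 and Zfp746 do not overlap between the 14 libraries of 10120 to 20827 FPKM Cst3 and the 16 of 39503 to 95123 FPKM, while Zfp217 and Zfp69 do overlap.

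Members were also read by what they are known to do. Of 4 genes tied to ubiquitin or SUMO (Zfp91, Zfp598, Zfp451 and Zfp746), 4 rose under fixed morphine, where 13.6% of all tested genes did, with a median difference of 1.18. The list was drawn up with earlier results of these data known, so the count is a description. Zfp598, a ligase that marks collided ribosomes, averaged 5.69 ± 1.08 against 2.76 ± 0.765 FPKM and Zfp451, a SUMO ligase, 9.30 ± 0.225 against 5.03 ± 1.77 FPKM. Of 9 well-studied transcription regulators Zfp148 and Zfp384 rose and Zfp217 fell (median 0.35), while Zfp143, Zfp281, Zfp263, Zfp410, Zfp219 and Zfp260 did not pass. Of 6 partners of chromatin complexes Zfp644, a partner of the G9a and GLP methyltransferases, rose (6.43 ± 0.722 against 3.11 ± 0.777 FPKM; list median 0.28). Of 9 RNA and ribosome binding members Zfp598 and Zfp638 rose (list median -0.03). None of 6 members listed as repressors of imprints and retroelements passed (median 0.07), among them Zfp445, which protects imprints, and Zfp809, which silences proviruses in stem cells, nor did any of 4 lineage regulators (Zfp703, Zfp467, Zfp318 and Zfp652; median 0.45). KRAB members passed in 8 of 103 cases (7 higher) and the others in 24 of 119 (19 higher), where 18.0% of all tested genes passed; the difference between them was not tested.

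The genes through which KRAB proteins act were read in the same comparison from a list of 20, all tested. Under fixed morphine 8 rose (Trim28, Cbx5, Chd4, Gatad2a, Mbd3, Suv39h1, Dnmt1 and Pphln1) and none fell, where 13.6% of all tested genes rose and 4.46% fell, with a list median of 0.78 where that of all tested genes was 0.22. Trim28, the scaffold itself, had 27.9, 53.0, 57.7 and 26.1 FPKM against 16.3, 18.3, 23.2 and 25.8 FPKM, a log2 difference of 0.88 ± 0.28 (limma, adjusted p = 0.0461). Its lowest morphine library was close to the highest saline library. Dnmt1, the maintenance DNA methyltransferase, had 8.65, 41.5, 41.0 and 12.04 FPKM against 11.0, 5.81, 5.19 and 3.60 FPKM, so it was high in replicates 2 and 3 and the groups overlapped. The same libraries stood out in Cbx5, the gene of HP1α (2.62, 15.8, 19.5 and 3.22 FPKM against 1.37 to 2.25 FPKM), and in Suv39h1 (7.01, 18.5, 23.6 and 6.17 FPKM against 2.42 to 4.42 FPKM). In all 8 genes that rose, replicates 2 and 3 were the 2 highest libraries. Uhrf1 had the largest difference of the list (2.18 ± 0.72) and did not pass (limma, adjusted p = 0.0513). It had 1.54, 39.4, 44.6 and 4.99 FPKM against 1.12 to 3.81 FPKM. Setdb1, the H3K9 methyltransferase, had 12.6, 12.1, 10.9 and 11.7 FPKM against 12.7, 6.43, 7.37 and 6.89 FPKM and did not pass (limma, adjusted p = 0.568). Chd4 and Gatad2a, both of the NuRD complex, differed by 1.10 ± 0.26 and 1.42 ± 0.29. Both naive libraries were above every fixed saline library in Gatad2a (14.7 and 16.2 against at most 8.61 FPKM). The same held for Suv39h1 (5.50 and 7.52 FPKM) and Pphln1 (9.49 and 9.34 against at most 8.34 FPKM), and not for the rest of the genes that rose. Treatment and Cst3 range cannot be told apart in these genes either. The list also stood high in other comparisons, in which none of its genes was called. Its median was 0.73 at CCI 2 dpi (18 of 20 positive) and 0.63 at CCI 7 dpi (17 of 20), beside 0.17 over all genes in each. At SNI 7 dpi it was 0.35 (14 of 20) and under escalating morphine 0.45 (15 of 20), beside 0.01 and 0.16.

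Escalating morphine gave no called member against escalating saline (limma, 0 of 225; 0.0340% of all tested genes called; n = 3 and 3), with 59 members at an unadjusted p under 0.05 (26.2%, where 19.2% of all genes were). Of those 59, 29 were higher and 30 lower, and 21 of the 30 lower were KRAB. Zfp777 had 3.03, 1.94 and 1.47 FPKM under morphine against 0.301 and 0.219 FPKM and a listing at 0 in saline (1.4 ± 0.27 on the log2 scale, limma, adjusted p = 0.0715). Zfp142 had 2.24, 0.859 and 1.67 FPKM against 0.0179 and 0.319 FPKM and a listing at 0 (1.19 ± 0.23, adjusted p = 0.0715 by limma). Zfp68, a KRAB gene, had 6.43, 5.90 and 5.80 FPKM against 15.7, 10.9 and 17.9 FPKM (-1.14 ± 0.23, adjusted p = 0.0715 by limma). The groups do not overlap in these 3 genes, and without saline_escalating replicate 8 they passed and 14 members were called. The share of all tested genes called in that fit is not given here. Members listed at 0 numbered 3 to 19 in the escalating saline libraries and 1 to 2 in those of escalating morphine. The floor that falls as depth rises was 0.256 to 0.618 and 0.146 to 0.450. The low saline values of Zfp777 and Zfp142 may thus be failed estimates, which was not tested. The median was -0.12 over the KRAB members (41 of 103 positive) and 0.27 over the others (80 of 119 positive), beside 0.16 over all tested genes. Under median-ratio and quantile scaling the KRAB median was -0.28 and -0.33 and that of the others 0.14 and 0.06. In FPKM the KRAB medians were 2.14 to 2.59 under escalating morphine, 2.99 to 3.72 in escalating saline and 2.04 to 2.50 in fixed saline. Escalating morphine thus overlapped fixed saline, and escalating saline stood above both.

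The difference between the 2 morphine responses called no member (limma, 0 of 225; 0.00850% of all genes called), with 41 members at an unadjusted p under 0.05 (18.2%, where 11.7% of all genes were). Zfp69 was among the 4 members of lowest p-value and had the largest difference of these: its fixed response minus its escalating response was -2.01 ± 0.54 (limma, adjusted p = 0.221). Under escalating morphine Zfp69 had 4.30, 10.9 and 11.9 FPKM against 7.02, 5.90 and 3.58 FPKM in escalating saline. Zfp131 (1.48 ± 0.39), Zfp951 (1.59 ± 0.41), Zfp866 (1.24 ± 0.34), Zfp691 (-1.63 ± 0.43) and Zfp358 (-1.06 ± 0.29) followed. Without morphine_escalating replicate 1, the library of the low Cst3 range, 8 members were called, and the share of all tested genes in that fit is not given here.

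The 3 kinds of control were compared because the injuries are set against all 9. No member was called among them (limma F-test, 0 of 225; 0.102% of all tested genes called; 33 members at an unadjusted p under 0.05, 14.7% where 13.5% of all genes were). With 2, 4 and 3 libraries this does not show that the controls are alike. The naive and saline libraries also lay in different Cst3 ranges. Zfp69 came nearest (adjusted p = 0.0660), with naive libraries at 1.64 and 6.37 FPKM, fixed saline at 9.85 to 27.7 FPKM and escalating saline at 3.58 to 7.02 FPKM. Zfp951, a KRAB gene, had 2.36 and 2.37 FPKM in naive libraries, at most 2.57 FPKM in fixed saline, and 3.98 to 9.94 FPKM after the escalating regimen of saline (limma, adjusted p = 0.111). Zfp384 was at 12.2 and 16.5 FPKM in naive and at most 5.76 FPKM in the 7 saline libraries (limma, adjusted p = 0.148). Without saline_fixed replicate 4 or saline_escalating replicate 8, 1 and 2 members were called, and the share of all tested genes in those fits is not given here. The median of KRAB members was lowest in fixed saline (2.04 to 2.50 FPKM), 2.78 and 2.84 FPKM in the naive libraries, and highest in escalating saline (2.99 to 3.72 FPKM); these 3 ranges do not overlap. Members without the KRAB pattern had medians of 3.67 to 4.11, 3.29 and 5.61, and 2.97 to 3.50 FPKM in the same order. Among them fixed saline lay above escalating saline without overlap, the reverse of the KRAB members, and the naive pair overlapped the span of both.

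After transection the KRAB members stood low at 1 dpi and high at 4 dpi, as medians over genes of which none passed alone. At 1 dpi no member was called (limma, 0 of 225; 0.0170% of all genes called), and 40 were at an unadjusted p under 0.05 (17.8%, where 16.1% of all genes were), 37 of them lower and 24 of these KRAB. The groups did not overlap in 22 members, 9.78% where 6.23% of all genes did not. The median was -0.67 over KRAB members and -0.29 over the others, beside -0.25 over all genes. SNT_1dpi replicate 1 had a KRAB median of 0.630 FPKM and replicate 2 one of 2.06 FPKM, inside the range of fixed saline. Zfp110, whose protein binds the neurotrophin receptor p75, was at 0.0385 and 6.95 FPKM against 8.67 to 13.4 FPKM in the 9 controls (-1.97 ± 0.50, limma, adjusted p = 0.129). Zfp617 and Zfp1 were listed at 0 in replicate 1 and had 4.51 and 2.68 FPKM in replicate 2. Without the library of few genes, replicate 1, no member was called and the KRAB median was -0.28; without replicate 2, 35 were called. Under quantile normalization the KRAB median was -0.21 and that of the others turned to 0.04. At 2 dpi no member was called either (limma, 0 of 225; 0% of all genes called; 7 members at an unadjusted p under 0.05, 3.11% where 7.33% of all genes were; no overlap in 6 members, against 2.30% of all genes), the KRAB median was -0.34, and without SNT_2dpi replicate 2 it turned to 0.08. Zfp90 had 16.2 and 5.62 FPKM, Zfp963 1.76 and 0.645 FPKM and Zfp672 5.49 and 18.0 FPKM, so replicate 2 was the extreme library in each of these 3 genes.

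At 4 dpi no member was called (limma, 0 of 225; 0% of all genes called, n = 2 and 9), and 15 were at an unadjusted p under 0.05 (6.67%, where 2.34% of all genes were), all 15 higher and 9 of them KRAB. The groups did not overlap in 16 members (7.11%, where 3.55% of all genes did not), all 16 higher. Of the 103 KRAB members 86 were positive with a median of 0.39, of the 119 others 71 with a median of 0.11, and of all tested genes 53.1% with a median of 0.03. The KRAB median stayed between 0.25 and 0.55 with another pseudocount, with both scalings, with naive controls alone, with saline controls alone and without escalating saline. Escalating saline alone was not used as the control. In FPKM the KRAB medians were 3.70 and 3.90 in the SNT_4dpi libraries and 2.99 to 3.72 in escalating saline, which overlap. Both SNT_4dpi libraries were in the high Cst3 range, as saline was. Zfp788 had 6.38 and 5.40 FPKM, where the controls reached 2.90 FPKM (1.37 ± 0.39, limma, adjusted p = 1). Zfp760 had 4.92 and 5.48 FPKM against at most 3.12 FPKM (1.17 ± 0.37), and Zfp945 4.66 and 2.71 FPKM against at most 2.06 FPKM (0.96 ± 0.34). Zfp809, the provirus silencer, had 16.0 and 12.6 FPKM where the controls had 4.47 to 9.63 FPKM.

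The run of 14 members on chromosome 17, which holds Zfp760, Zfp945 and Zfp52, followed the same course. At 4 dpi 14 of its 14 members were positive, with a median of 0.70 and a range of 0.06 to 1.17; 14 were positive under both scalings as well, 12 against naive controls alone and 13 without escalating saline. Its median level was 4.79 and 3.79 FPKM in the SNT_4dpi libraries and 3.41 to 4.29 FPKM in escalating saline, which overlap, against 1.97 to 2.56 FPKM in fixed saline and 3.08 and 3.30 FPKM in naive. CCI_7dpi replicate 2 also reached 4.44 FPKM. At 1 dpi 1 of 14 was positive, with a median of -0.91, which was -0.42 with 3 of 14 positive without SNT_1dpi replicate 1. Under escalating morphine 2 of 14 were positive (median -0.43) and under fixed morphine 10 of 14 (median 0.20). The median level of the run was 1.85 to 2.97 FPKM under escalating morphine, which overlaps fixed saline and lies below escalating saline. The run of 11 on chromosome 13 had 9 positive at 4 dpi (median 0.30) and the run of 11 on chromosome 7 had 7 (median 0.09), while the run at chr6:47835661-48623227, which holds Zfp746, Zfp777 and Zfp467, had 4 of 8 (median -0.02). Neighbours share sequence, so these members are not independent of each other.

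At 7 dpi after transection the 2 libraries lay in different Cst3 ranges and had the lowest correlation of any pair within a group (0.789 over all tested genes). No member was called (limma, 0 of 225; 0.204% of all genes called), and 31 were at an unadjusted p under 0.05 (13.8%, where 8.88% of all genes were). The groups did not overlap in 6 members (2.67%, where 4.58% of all genes did not). Zfp825, a KRAB gene, had 0.412 and 3.23 FPKM where the controls had 3.91 to 15.2 FPKM (-1.66 ± 0.44, limma, adjusted p = 0.221), and Zfp868 0.136 and 3.93 FPKM against 4.02 to 12.6 FPKM. Zfp689 had 6.30 and 1.54 FPKM. Replicate 1 was the extreme library in each. With saline controls alone and without replicate 2, every library was in the high Cst3 range. The median member difference was then -0.61, beside -0.23 over all tested genes, and rests on the single library with few genes.

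After constriction and spared injury no member was called at any time (limma, 0 of 225 in each; 0.00850% of all tested genes at CCI 2 dpi, 0% at CCI 7 dpi and 0% at SNI 7 dpi). At an unadjusted p under 0.05 there were 9, 7 and 3 members (4.00%, 3.11% and 1.33%, where 10.7%, 9.75% and 4.06% of all genes were). The groups did not overlap in 12, 7 and 4 members (all genes: 10.3%, 9.33% and 3.09%). Zfp384 had the largest positive difference in each of the 3 groups, and Zfp746 was among the 3 largest in each. Zfp384 had 16.0 and 11.5 FPKM at CCI 2 dpi, 14.8 and 17.9 FPKM at CCI 7 dpi and 14.3 and 12.9 FPKM at SNI 7 dpi. That is above the 7 saline libraries and beside the 12.2 and 16.5 FPKM of naive. Against all 9 controls it differed by 1.89 ± 0.74 at CCI 7 dpi (limma, adjusted p = 0.383) and by 1.64 ± 0.74 at SNI 7 dpi (limma, adjusted p = 0.999), which was -0.07 against naive alone. Zfp746 had 8.75 and 12.2 FPKM at CCI 7 dpi and 7.82 and 9.95 FPKM at SNI 7 dpi, where naive had 7.57 and 10.1 FPKM. Zfp598 had 7.30 and 6.99 FPKM at CCI 7 dpi against 2.05 to 5.85 FPKM in the controls (1.02 ± 0.42, limma, adjusted p = 0.404). Zfp950 was low at CCI 2 dpi, at 2.91 and 1.51 FPKM against 3.77 to 11.4 FPKM (-1.48 ± 0.49, limma, adjusted p = 0.387). The member median was 0.07, 0.20 and 0.07 in the 3 groups, beside 0.17, 0.17 and 0.01 over all genes. All CCI and SNI libraries were in the low Cst3 range and all saline controls in the high one. Injury and range therefore cannot be told apart against the saline controls. Against naive controls alone, which share the low range, the member median was -0.06, 0.09 and -0.04, beside 0.14, 0.14 and 0 over all genes.

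**Figure D5:**
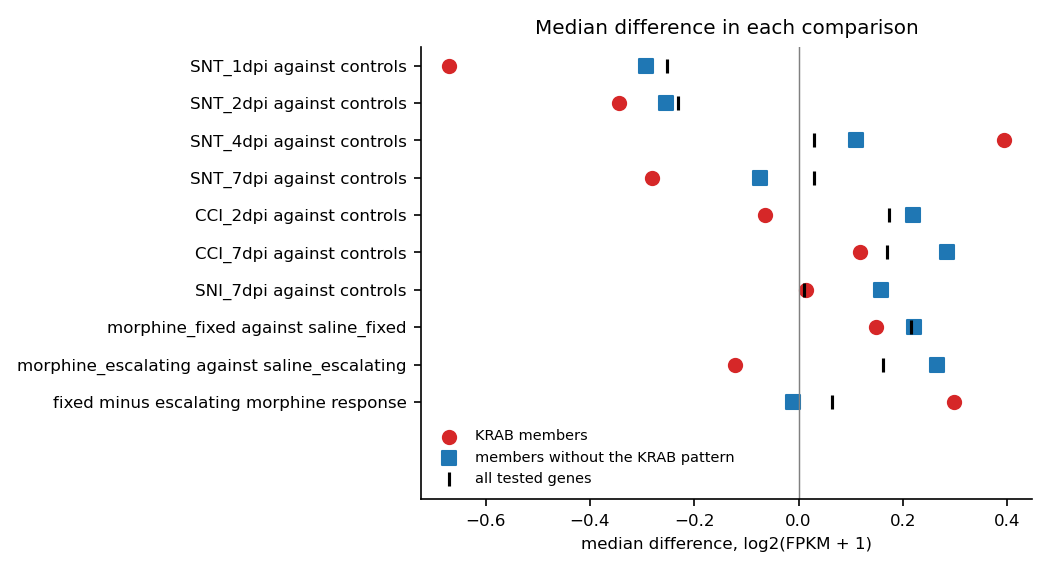
Median difference in log2(FPKM + 1) (horizontal axis) in each comparison (vertical axis) of the 103 KRAB members (circles), the 119 members without the pattern (squares) and all 11759 tested genes (ticks). KRAB members lie furthest below 0 at SNT 1 dpi (-0.67) and furthest above at SNT 4 dpi (0.39); the medians have no test.

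Across all 12 groups 12 members differed (limma F-test, 12 of 225, 5.33%, where 7.72% of all tested genes were called). They were Zfp746 (adjusted p = 0.00509), Zfp69 (0.00673), Zfp825 (0.00836), Zfp384 (0.0117), Zfp758, Zfp740, Zfp777, Zfp217, Zfp142, Zfp52, Zfp946 and Zfp68, and 7 of them are KRAB. Their levels followed different courses. Zfp746, Zfp384 and Zfp740 were high in naive, CCI, SNI, fixed morphine, SNT_7dpi replicate 2 and morphine_escalating replicate 1, and Zfp217 was low in those libraries (1.21 to 2.80 FPKM) and at 1.89 to 6.76 FPKM in the others, ranges that overlap. Zfp825, Zfp758 and Zfp68 were instead highest in SNT_4dpi and escalating saline. Zfp825 had 20.4 and 14.5 FPKM in SNT_4dpi and 7.11, 11.3 and 15.2 FPKM in escalating saline, where the other libraries had 0.412 to 7.89 FPKM. Zfp758 had 6.88 and 10.01 FPKM in SNT_4dpi and 7.76, 7.86 and 6.98 FPKM in escalating saline, where the others had 0.505 to 5.55 FPKM. Zfp68 had 13.2 and 14.1 FPKM in SNT_4dpi and 15.7, 10.9 and 17.9 FPKM in escalating saline, where the others had 2.79 to 9.19 FPKM. Zfp69 followed neither course: it was highest in fixed saline (9.85 to 27.7 FPKM) and SNT_1dpi (15.2 and 26.3 FPKM), and had 6.07 and 8.53 FPKM in SNT_4dpi. Zfp777 and Zfp142 were lowest in escalating saline, at most 0.301 and 0.319 FPKM. The count of 12 members moved when libraries were left out, which can leave 1 library in a group. The share of all tested genes called in such fits is not given here.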

How the data were processed

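RNA was measured in 30 libraries of CD11b-selected spinal cells; per the labels' protocols they were made with Smart-Seq2 and Nextera XT. The authors' deposited table gives FPKM per gene symbol. The submitters' processing notes list DESeq2 (no version), featureCounts 1.4.6, Cufflinks 2.2.1, HISAT2 2.0.5.1 and mm10; which tool made the FPKM values, and with which annotation, is not given in the sources used here. The 826 rows of 281 repeated symbols were left out. Values were taken as log2(FPKM + 1), which understates changes of low genes, and fitted over all 11759 tested genes with limma 3.58.1 in R 4.3.3 (intensity trend, two-sided, Benjamini-Hochberg over all genes, threshold 0.05). One fit held the 14 injury and 9 control libraries, 1 the 7 morphine and 7 saline libraries, and the F-tests all 30. The fit was tested on simulated data with independent noise and known changes. Those data held no Cst3 split and no libraries of few genes, so the test does not cover these features. Groups came from titles and treatment labels.

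The members and gene lists were chosen with earlier results of these data known. Named were the 12 highest members, the 5 most and 5 least variable, in each comparison up to 12 called members per direction that reached 2 FPKM in either mean and whose groups did not overlap, the 3 lowest p-values where under 3 were called, the 6 lowest for F-tests and the difference of responses, and members of the role lists. Fingers were counted as 2 cysteines 2 to 4 residues apart and 2 histidines 3 to 5 apart around a loop of 12. KRAB boxes were searched in the first 400 residues; a stricter pattern found 72. Promoters are RefSeq windows (35 members had none). Figures were drawn with Python 3.11.15 and matplotlib 3.10.9. No value of depth is in the files, so no counting interval was computed, and the number of libraries limits the precision.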

Additional observations from a re-analysis of the deposited data

How the results depend on the processing

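For fixed morphine the count of 32 called members was 26 with a pseudocount of 0.1, 25 with no filter on low values and 23 with median-ratio scaling. It was 20 with quantile normalization, 0 with the replicate block and 8 to 30 when each library was left out in turn. With naive libraries in place of fixed saline it was 0 (n = 4 and 2, a fit of all 30 libraries, chosen after the data were seen). The 12-group count of 12 was 10 to 13 with the other pseudocount, no filter and median-ratio scaling, 20 with quantile normalization, 33 without the 3 libraries with the fewest genes, and 8 to 71 when each library was left out. Leaving out each library gave 0 to 35 members at SNT 1 dpi, 0 to 7 at SNT 2 dpi, 0 to 34 at SNT 7 dpi, 0 to 14 for escalating morphine, 0 to 8 for the difference of the morphine responses and 0 to 2 among the controls, and 0 at SNT 4 dpi, CCI 2 and 7 dpi and SNI 7 dpi; the lone library of a group is then assumed to vary like the other groups. With saline controls alone, within the high Cst3 range (chosen after the data were seen), SNT 7 dpi had 23. The injury counts were 0 under every other alternative run.

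Zfp384 at SNI 7 dpi turned to -0.0653 with naive controls alone and to -0.0653 with the replicate block. Zfp69 turned to 0.54 and Zfp217 to 0.041 with naive libraries in place of fixed saline; the cause was not tested. Libraries with the same replicate number did not deviate together (94 pairs, correlations of -0.64 to 0.39, 16 over 0.1), so the number was not taken as a pairing. In groups of 2 libraries the deviations mirror each other. Pairs between such groups therefore repeat the same correlation, and fewer than 94 are independent. Fixed morphine (replicates 1 to 4) and fixed saline (3 to 6) share only numbers 3 and 4, and injury libraries share theirs only with the naive ones, so the block leaves few libraries to compare. The block could not be fitted for escalating morphine, the difference of the morphine responses and both F-tests. KRAB members numbered 103, and 72 by the stricter pattern. Depth is unknown, so a listing at 0 sets no limit.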
